A study of Helianthus annuus with 142 samples.

Results

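Expression in sunflower leaves was followed along chromosome 7, gene by gene, in 8 lines and 16 of their hybrids, with and without drought. The genes are the 1100 models of chromosome 7 with a mean level from 1 to under 1000 CPM (read counts scaled by the library total) and a mean difference between stressed and control plants of less than 3 on the log2 scale. The level was the mean of the stress and control means, and the difference was log2 of the stress mean over the control mean after adding 0.5 CPM to each. They come from 2185 models on chromosome 7 and 58050 genes in the count table. Of the others on the chromosome, 1066 had a level under 1 CPM (172 of them no count in any library), 4 reached the upper bound, and 12 rose and 3 fell beyond the fold bound. The genes were thus selected on their level and on their average drought change, and both are given below as description only. The lowest level kept was 1.005 CPM and the nearest left out 0.9948 CPM; the highest kept was 958.2 CPM and the nearest above it 1806 CPM. On the log2 scale the members nearest the fold bounds stood at 2.963 and -2.978, and the nearest genes outside at 3.002 and -3.225.

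Stressed plants had a labelled fraction of transpirable soil water (FTSW, the part of the soil water within reach of the plant that is left) of 0.1, and control plants one of 1. The hybrids were SF009, SF092, SF109 and SF193, each named first with SF279, SF317, SF326 and SF342, in all 16 combinations. The lines were those 8 parents. Which parent bore the seed is not in the labels, so they are called first-named and second-named here. Every one of the 48 groups of genotype and water supply had 3 libraries, each from its own plant, except SF342 control, which had 1. That gave 72 stress and 70 control libraries. The files do not pair the gene identifiers with names or functions, and 0 of them matched the reference gene table, so genes are given by identifier and position, and the leaf label was not checked against marker genes. Positions are copied from the count table; no source used here names their genome build, and no sequence could be read for these models.

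Cultivated sunflower is sold mostly as hybrids between inbred lines. A hybrid plant carries one copy of chromosome 7 from each parent, so a gene that is missing or silent in one parent can still be read from the other copy. Sunflower lines are known to differ in which genes they carry as well as in how strongly they read them. When soil dries, leaves close their stomata and change the transcripts of a large part of the genome. A chromosome is therefore a mixture of genes that follow the water supply and stretches whose ancestry differs between lines.

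Library totals ran from 2796719 to 13765614 counts with a median of 6922010, and the 1100 genes took between 1.849% and 3.113% of them. The labels were compared with on and off states of 1010 genes over the whole table, and 137 libraries matched their own label best. Replicate 3 of SF092_SF317 under stress matched the states of its label in 55% of genes and those of SF326 in 99.05%, and replicate 3 of SF326 under stress matched those of its label in 52.73% and those of SF092_SF317 in 98.29%. Replicate 1 of SF009_SF279 control had 68.53% for its label and 81.74% for SF009_SF326. The remaining 2 of the 5 that did not were SF009 libraries, and no SF009 library exceeded 83.48% with its own label. These 3 libraries and all 6 of SF009 are called the 9 doubted libraries, and results were recomputed without them. The states of 3 of the lines also differed from those of their labelled hybrids, as described with the on/off genes.

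The genes covered the chromosome from position 65345 to 103134923. They fell into 11 windows of 10 Mb by start position, numbered from the low end, with 118, 61, 65, 66, 76, 78, 121, 143, 187, 121 and 64 genes. Windows with more models mostly held more of these genes, with 129 models in window 4 and 344 in window 9. Window 10 was an exception, with 293 models and 121 genes, against 246 models and 143 genes in window 8. The median level was 8.759 CPM, against 9.607 CPM over the 27577 genes of other chromosomes within the same bounds. No model overlapped another on the chromosome.

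**Figure D1:**
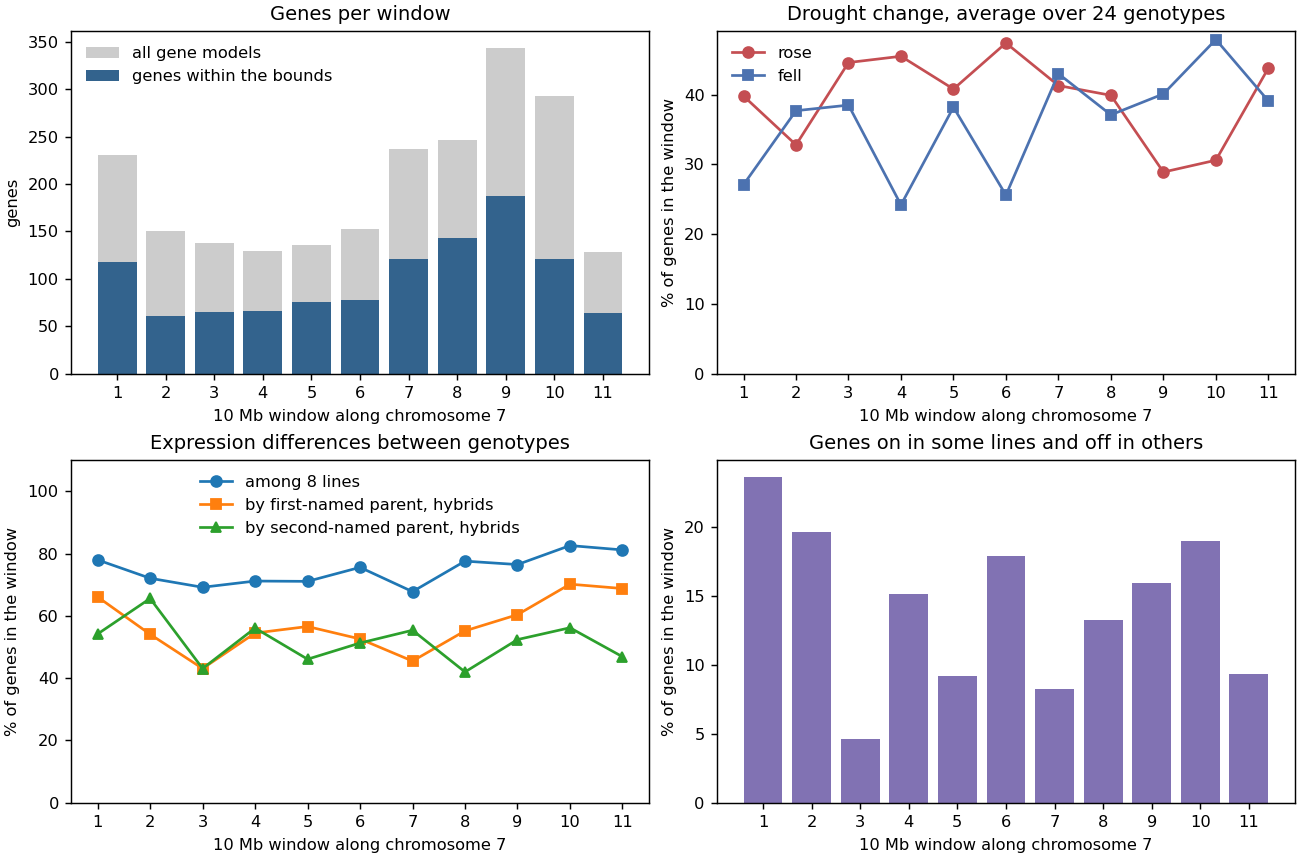
Profiles along the 11 windows of 10 Mb of chromosome 7 (horizontal axes). They plot the number of models and of genes within the bounds, the percent of those genes whose averaged drought change was called in each direction, the percent called as different among lines or by parent in hybrids, and the percent that were on/off genes. The share that differed among lines stayed between 67.8% and 82.6%, while the on/off share ran from 4.62% in window 3 to 23.7% in window 1.

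Averaged over the 24 genotypes, 420 of the 1100 genes were called as risen under stress (38.2%, background 31.4% of 36989 genes tested) and 408 as fallen (37.1%, background 32.6%). Within the same bounds on other chromosomes, 36.4% rose and 37.1% fell. These calls come from the contrast used to choose the genes and from the quasi-likelihood test of edgeR at an adjusted p under 0.05. For 130 genes, 116 of them without a count in some genotype, the averaged test gave no information and they count as not called; limma voom, which does not have this limit, called 449 and 448. Scaling by library totals alone moved the median log2 of all tested genes to 0.22, against 0.03 with TMM scaling, and gave 516 rises and 321 falls. The median log2 change was 0.49 among risen genes (quartiles 0.27 and 0.86) and -0.79 among fallen genes (quartiles -1.41 and -0.41). More than a doubling was seen for 82 of the risen genes, and a fall below a log2 of -1 for 163 of the fallen ones. The direction was the same in all 24 genotypes for 98 risen and 124 fallen genes. These counts by size and by direction were taken for the 1100 genes only, so no background stands beside them. By window, the risen share was highest in window 6 at 47.4% and lowest in window 9 at 28.9%. The fallen share was highest in window 10 at 47.9% and lowest in window 4 at 24.2%. Falls outnumbered rises in windows 2, 7, 9 and 10, by 23 to 20 in window 2 and 52 to 50 in window 7. Every other window had more rises than falls. Neighbouring genes moved little together: over 1099 pairs of adjacent genes, Pearson's r of the averaged drought log2 was 0.07, with 0.11 for the 564 pairs on the same strand and 0.03 for the 535 on opposite strands. All genes of a pair were measured in the same libraries.

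The largest rise with the same direction in all genotypes, among genes whose log2 CPM averaged 1 or more, was in HanXRQChr07g0198331 (7: 74279740 to 74280756, plus strand, window 8). Its level in the 72 stress libraries ran from 0 to 8.31 CPM with a median of 3.84 CPM, and in the 70 control libraries from 0 to 0.715 CPM with a median of 0.104 CPM. The ranges overlapped at the low end, and its fitted log2 change was 4.59 (SE 0.26). HanXRQChr07g0197251 (7: 70680773 to 70681976, minus strand), in the same window, had 0.341 to 9.84 CPM under stress, median 3.63, against 0 to 0.925 CPM in control plants, median 0.238. Its log2 change was 3.61 (SE 0.19). Both genes were close to silent in watered leaves.

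The largest falls were both in window 10. HanXRQChr07g0203461 (7: 91043274 to 91043903, plus strand) had 0 to 15.0 CPM in stress libraries, median 0.443, against 1.61 to 51.8 CPM in control libraries, median 14.1. Its log2 change was -4.20 (SE 0.22). HanXRQChr07g0205891 (7: 99546394 to 99554783, minus strand) had 0 to 90.6 CPM under stress, median 2.82, against 22.0 to 229.4 CPM in control plants, median 72.3. Its log2 change was -4.19 (SE 0.23). A fitted log2 change averages the genotypes on the log scale, so it can pass the bound of 3 that was set on mean CPM. The high stress values of both genes came mainly from lines: the median of HanXRQChr07g0205891 under stress was 1.25 CPM in 48 hybrid libraries and 13.2 CPM in 24 line libraries.

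The response itself was then compared between hybrids and lines, a contrast the choice of genes did not use. It differed for 370 of the 1100 genes (33.6%, background 28.7%; 34.2% of the genes within the same bounds on other chromosomes). The signed difference, hybrids minus lines, was above 0 for 171 of them (background 11.2% of genes tested) and below 0 for 199 (background 17.5%). Over all 420 risen genes the median log2 change was 0.57 in hybrids and 0.34 in lines, and over all 408 fallen genes -0.93 in hybrids and -0.48 in lines. These medians are a description only: genes were called as risen or fallen from an average in which 16 of 24 genotypes are hybrids, which favours a larger change in hybrids. Among the 272 genes not called in drought, the response differed for 15, and 7 of these had the larger change in hybrids. Over all genes tested, it differed for 950 of 13331 not called in drought, and 45.9% of these had the larger change in hybrids. The test of hybrids against lines gave no information for 125 of the 1100 genes, which count as not called. The 272 include the 130 genes without information in the averaged drought test. The share of genes whose response differed was highest in window 7 at 46.3% and lowest in window 3 at 24.6%, and every window held such genes. The count was 419 without the doubted libraries, and 263 without them and the lines SF009, SF092 and SF326. It was 248 without SF342, 289 without replicate 1, 234 without replicate 2 and 167 without replicate 3. Leaving out replicate 3 also removed line SF342, whose single control library is replicate 3.

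The size of the response over the 1100 genes can be put in one number per genotype, the slope of its log2 changes regressed on the average change in the remaining 23, most of which are hybrids. It was 1.15 ± 0.20 in 16 hybrids and 0.65 ± 0.27 in 8 lines (SD). The ranges overlapped, from 0.81 to 1.44 in hybrids and from 0.20 to 1.12 in lines. SF009 had the highest slope among lines, 1.12, and SF342, with its single control library, the lowest at 0.20. On other chromosomes within the same bounds the slopes were 1.14 ± 0.19 in hybrids and 0.65 ± 0.26 in lines. Whether hybrid and line plants had reached the same state of dehydration was not tested.

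HanXRQChr07g0195821 (7: 64571461 to 64572552, minus strand, window 7) had the largest positive difference among the called genes with a mean of at least 1 CPM in every genotype. Hybrids had 5.83 to 109.0 CPM under stress (median 51.0, 48 libraries) and 1.45 to 33.1 CPM in control plants (median 5.09). Lines had 8.80 to 133.1 CPM under stress (median 37.7, 24 libraries) and 2.95 to 51.1 CPM in control plants (median 8.93, 22 libraries). The log2 response was 2.87 in hybrids and 1.14 in lines, a difference of 1.73 (SE 0.32, edgeR adjusted p = 2.258e-05). In SF092 it did not rise, with 26.6, 41.2 and 46.6 CPM under stress against 6.91, 45.7 and 48.4 CPM in control plants.

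HanXRQChr07g0200061 (7: 81313533 to 81314912, plus strand, window 9) had the largest negative difference among the same genes; without that limit on level, differences reached -3.36. Hybrids had a median of 3.37 CPM under stress (0 to 92.2) against 38.8 CPM in control plants (6.54 to 104.2). Lines had a median of 12.7 CPM under stress (0 to 108.9) against 8.04 CPM in control plants (0.410 to 54.7). The log2 response was -2.84 in hybrids and 0.18 in lines, and the difference was -3.02 (SE 0.54, edgeR adjusted p = 1.004e-05); without replicate 3 it was -2.01 with an adjusted p of 0.05345. The lines did not share a direction: SF342 had 38.2, 64.2 and 108.9 CPM under stress against 2.57 CPM in its 1 control library, while SF092 had 8.20, 11.6 and 39.7 CPM under stress against 16.4, 18.8 and 54.7 CPM in control plants.

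Across the 24 genotypes, the response differed for 158 of the 1100 genes (14.4%, background 11.9%). With 2 plants a group this count was 26 without replicate 1, 26 without replicate 2 and 20 without replicate 3. Without the doubted libraries it was 195. HanXRQChr07g0191011 (7: 32981482 to 32982855, minus strand, window 4) had the smallest p among genes with a mean of at least 1 CPM in every genotype (edgeR adjusted p = 9.775e-06). In SF326 it had 19.8, 25.96 and 33.2 CPM under stress against 60.0, 61.5 and 63.5 CPM in control plants, with no overlap. In SF092_SF317 it went the other way, with 17.9, 29.5 and 30.5 CPM under stress against 11.5, 14.2 and 17.4 CPM in control plants. One stress library of each of these 2 genotypes is among the doubted ones. HanXRQChr07g0192191 (7: 41510062 to 41514101, plus strand, window 5; edgeR adjusted p = 1.178e-05) had 4.52, 7.33 and 7.602 CPM in stressed SF109_SF326 against 12.7, 12.96 and 19.6 CPM in its control plants. SF342 had 9.70, 14.0 and 14.4 CPM under stress against 2.71 CPM in its control library.

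Differences among the 8 lines, averaged over water supply, were called for 829 of the 1100 genes (75.4%, background 75.7%; 77.5% within the same bounds on other chromosomes). Chromosome 7 ranked 13 of 17 chromosomes in that share. The fitted line means of a called gene spanned a median of 1.63 on the log2 scale (quartiles 0.90 and 4.01). By window the share was lowest in window 7 at 67.8% and highest in window 10 at 82.6%, with 81.2% in window 11 and 78% in window 1. The low end depended on the libraries used: it lay in window 3, at 50.8% to 58.5%, when any replicate number was left out. Window 10 was highest in these fits except without replicate 3, when window 11 was. The median span over all genes of a window was also largest in window 10 at 1.72 and smallest in window 3 at 0.86. Adjacent genes resembled each other more in their line profiles than genes farther apart: the median over pairs of Pearson's r across the 8 lines was 0.18 for neighbours, 0.06 for genes 2 apart and -0.03 for genes 50 apart.

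HanXRQChr07g0195061 (7: 61564064 to 61566016, plus strand, window 7) had the widest span of line means among genes with every line mean at 1 CPM or more, 5.11 on the log2 scale (edgeR adjusted p = 3.833e-12). The 4 SF342 libraries had 1.07 to 1.35 CPM, and SF193 had 1.15 to 10.6 CPM with a median of 4.61 CPM. The 6 libraries of SF109 had 24.4 to 50.8 CPM and those of SF279 15.6 to 54.2 CPM, so neither overlapped with SF342 or SF193. The gene also fell under stress, to 4.61 CPM at the median of stress libraries, against 38.4 CPM in control libraries. HanXRQChr07g0185601 (7: 624180 to 626379, minus strand, window 1) spanned 4.98 on the log2 scale (edgeR adjusted p = 9.738e-31). SF279 had 2.16 to 4.75 CPM and SF092 had 2.18 to 5.46 CPM, while SF109 had 82.6 to 118.9 CPM. In SF326, 5 libraries had 2.91 to 5.21 CPM and the doubted one 44.9 CPM. SF109_SF279 lay between its parents with 25.8 to 34.7 CPM, while SF092_SF279, whose labelled parents are both low, had 2.61 to 4.68 CPM.

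Pair by pair, the 28 pairs of lines differed in a median of 304.5 genes, and 28.2% of all tests of a gene in a pair were called (background 28.7%). The count was lowest between SF092 and SF326, at 100 genes (9.09%, background 8.45%), and highest between SF009 and SF279, at 423 genes (38.5%, background 37.2%). SF092 and SF326 were also the least different pair in each of the 11 windows, from 3.08% in window 3 to 15.3% in window 1. They had the longest stretch without a call, 64 consecutive genes from position 47486740 to 57151963 in windows 5 and 6. Long stretches are likelier in a pair with few calls, and how long they would be without any local pattern was not tested. Stretches were taken from the main fit only, which includes the doubted libraries. The next longest stretch, 46 genes between SF317 and SF342 from 83530092 to 85115482 in window 9, had its first 20 genes without a call between the hybrids of these parents as well. Between SF279 and SF342, the longest stretch was the same in hybrids and lines, 20 genes from 21870374 to 24657514 in window 3. SF092 and SF326 were the closest pair in all 11 alternative fits that held both lines, but their count ranged from 48 to 188, the highest without the doubted libraries, which include 1 of SF326. The highest shares of single windows belonged to SF193. It differed from its 7 partners in a mean of 46.6% of genes in window 10 and 43.5% in window 11, while the other 7 lines had means of 25.1% to 34.4% in window 10 and 22.1% to 31% in window 11. SF193 had the highest mean in window 10 in all 12 alternative fits. SF193 and SF279 reached 52.9% in window 10 (background of that pair 36.2%). In window 1, SF009 and SF193 differed in 23.7% of genes (background 33.1%), the lowest share among the 7 pairs of SF193 there.

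**Figure D2:**
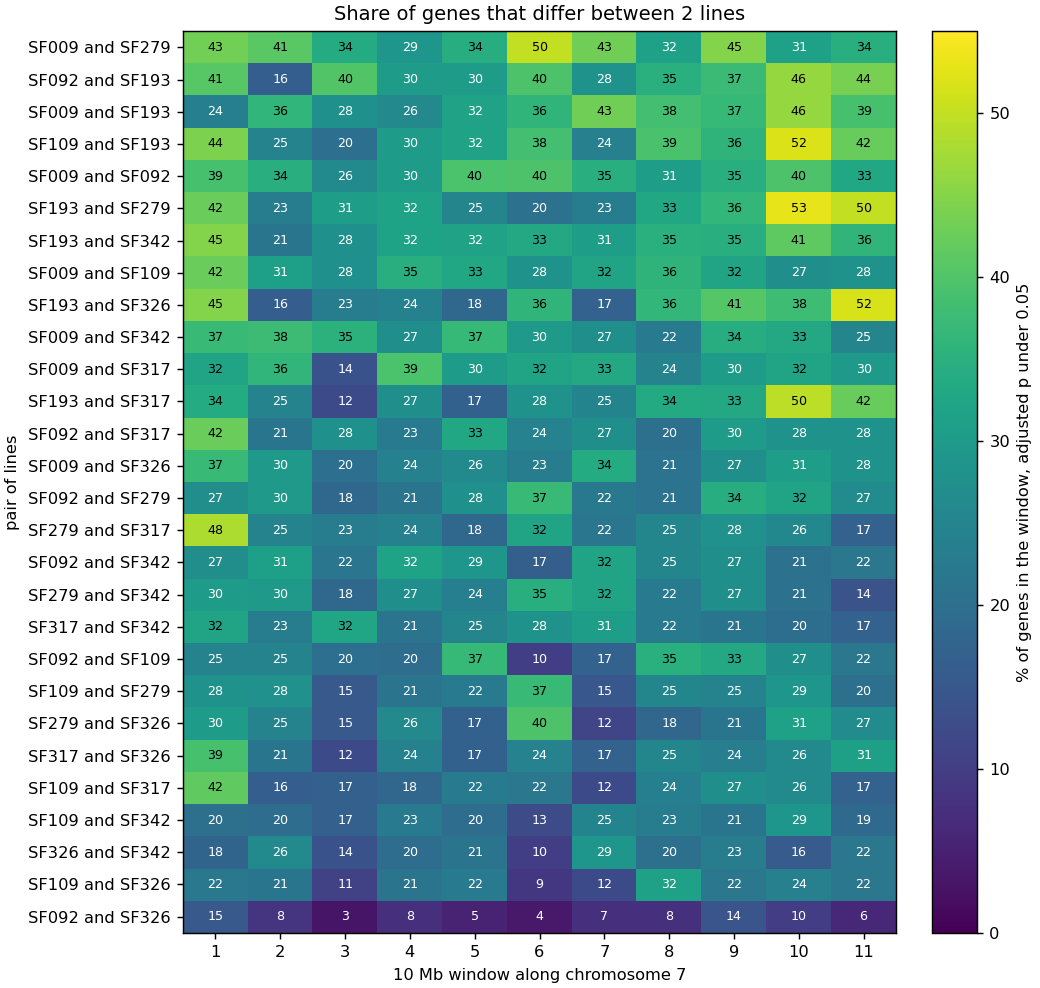
Percent of genes called as different between 2 lines (edgeR, adjusted p under 0.05) for the 28 pairs of lines (rows, ordered by mean) in the 11 windows of 10 Mb (columns); cells give rounded percents. The pair of SF092 and SF326 is lowest in every column, and pairs with SF193 hold the high values in windows 10 and 11, up to 52.9%.

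The same comparison was made in hybrids for the 12 pairs of parents that stand at the same place in the names. The 4 hybrids of one parent were set against the 4 hybrids of the other with the same partners, and 29.4% of these tests were called (background 27.9%). Of 3818 calls between lines, 3394 (88.9%) had the same sign between the hybrid sets; over all tested genes it was 87.4%. Where both were called, 2231 of 2275 had the same sign. The hybrid difference was smaller than the line difference, with a median ratio of 0.344 on the log2 scale (quartiles 0.138 and 0.566). This ratio is a description only: its genes were called between the lines, which favours a larger line difference, and the hybrid sets share their partners. For the 3 pairs with SF326 the median ratio was between 0.196 and 0.233 and the same-sign share between 80.2% and 85.6%; for the other 9 pairs the ratio was between 0.325 and 0.41 and the share between 83% and 93.6%. Over the 132 combinations of pair and window, the share of genes called in hybrids followed that in lines with a Pearson's r of 0.629 and a Spearman's rho of 0.59. Pairs share lines, and hybrid sets share libraries, so these combinations are not independent.

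The high share of SF193 in window 10 was also seen in hybrids. There its hybrids differed from those of SF009, SF092 and SF109 in 47.1%, 46.3% and 47.1% of genes (backgrounds 31.1%, 32.8% and 28.3%), while the other 3 pairs of first-named parents differed in 28.9% to 33.9%. In window 11 this did not hold: SF193 hybrids differed from those of SF009, SF092 and SF109 in 37.5%, 43.8% and 35.9% of genes, and the hybrids of SF009 and SF092 differed in 40.6%. In window 1 the hybrids of SF193 and SF009 differed in 23.7%, the same share as the lines. A mismatch was seen in window 6, where SF009 and SF092 differed in 14.1% of genes as hybrid sets (background 27.5%) and in 39.7% as lines (background 31.2%).

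**Figure D3:**
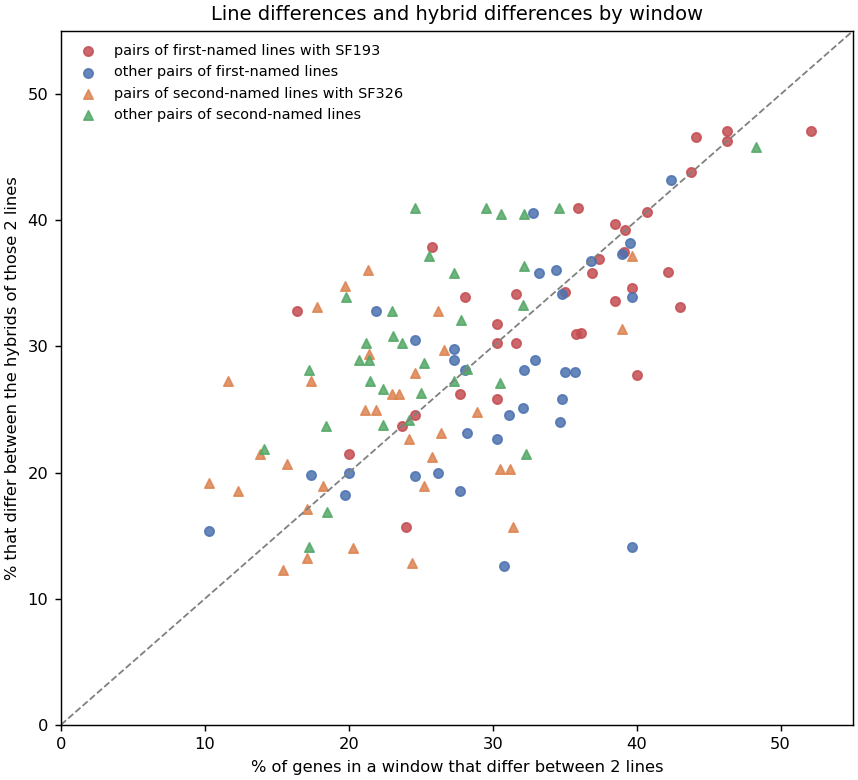
Percent of genes in a window that differed between 2 lines (horizontal axis) and between the hybrids of those 2 lines (vertical axis), with 1 point for each of 132 combinations of pair and window and a dashed line of equality. Points of SF193 in the upper right lie near the line, and r over all points was 0.629.

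Within the 16 hybrids, the first-named parent had an effect on 635 of the 1100 genes (57.7%, background 53.6%) and the second-named parent on 567 (51.5%, background 52.3%). Within the same bounds on other chromosomes the shares were 56.1% and 56%, and chromosome 7 ranked 6 and 14 of 17. Both effects were called for 417 genes, the first alone for 218 and the second alone for 150. An effect of the combination of parents beyond the 2 separate effects was called for 232 genes (21.1%, background 18.8%), and 14 of these had neither separate effect. The first-named effect was most frequent in window 10 at 70.2% and window 11 at 68.8%, and least in window 3 at 43.1%. The second-named effect peaked in window 2 at 65.6% and was lowest in window 8 at 42%. Of the 1100 genes, 158 had no call among lines, by parent or by combination. This count and the overlaps of effects above were taken for the 1100 genes only, so no background stands beside them.

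HanXRQChr07g0201461 (7: 85518108 to 85518992, minus strand, window 9) had the smallest p of the first-named effect among genes with a mean of at least 1 CPM in every hybrid (edgeR adjusted p = 1.102e-34). The 24 libraries of SF193 hybrids had 3.97 to 12.0 CPM, and those of SF009 hybrids 0.372 to 14.2 CPM with a median of 7.39 CPM. Hybrids of SF092 had 0.382 to 2.29 CPM and those of SF109 0.360 to 2.99 CPM, with no overlap with the SF193 hybrids. The lines were ordered alike, with 8.92 to 17.3 CPM in SF193, 7.03 to 25.1 CPM in SF009, 0.546 to 2.10 CPM in SF092 and 0.863 to 2.25 CPM in SF109. The exception was SF009_SF279, with a median of 1.54 CPM and 0.372 to 7.26 CPM, while the other 3 hybrids of SF009 had medians of 8.99 to 9.89 CPM.

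HanXRQChr07g0192441 (7: 43677193 to 43679796, plus strand, window 5) had the smallest p of the second-named effect under the same limit on level (edgeR adjusted p = 1.422e-33). It had no count in the 6 libraries of SF279 and 0 to 0.216 CPM in the 4 of SF342, against 13.6 to 23.4 CPM in SF317 and 29.5 to 43.5 CPM in SF326. Hybrids of SF279 had a median of 9.07 CPM (3.14 to 30.7) and hybrids of SF342 one of 8.68 CPM (3.59 to 27.4). Hybrids of SF317 had a median of 27.0 CPM (12.0 to 41.1) and those of SF326 one of 24.8 CPM (10.8 to 46.6). The ranges of these hybrid sets overlapped. The first-named parent effect was called as well (edgeR adjusted p = 2.194e-34), and the libraries labelled SF092 had a median of 37.1 CPM and those of SF109 one of 8.47 CPM.

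A gene was called on/off where at least 1 line had a median under 0.1 CPM over its libraries and at least 1 other a median of 1 CPM or more. There were 162 such genes (14.7%; 15% of the genes within the same bounds on other chromosomes and on all chromosomes). The line test called 159 of the 162, but it used the libraries from which these genes were chosen, so this is a description only. A level of 0 does not separate a missing gene from a silent one or from reads that do not align, and the limit that 3 counts summed over a line's libraries set was between 0.0529 and 0.118 CPM, highest for SF342. This covers counting error only. On/off genes were shorter and lower than the others, with a median model length of 2931 bp against 4014 bp and a median level of 3.77 CPM against 10.3 CPM. The level includes the lines chosen as off, so a lower level follows in part from the rule. Lengths were not compared at equal level. They made up 23.7% of the genes of window 1 and 19.7% of window 2, and 4.62% of window 3.

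SF342 was off for 80 of the 162 genes, SF109 for 75, SF279 for 61, SF317 for 55, SF193 for 54, SF326 for 53, SF009 for 30 and SF092 for 28. Exactly 1 line was off for 55 genes, most often SF342 (16) and SF193 (14), and 21 of the 55 were on in all other 7 lines. SF342 rests on 4 libraries, so a zero there is based on fewer counts. Of the 11 genes on in exactly 1 line, 5 were on in SF193, and all 5 lay in window 10. Other lines could lie between the 2 limits, and only 2 of the 11 genes were off in all other 7 lines. Among the 5 of SF193, this held for HanXRQChr07g0204711 alone. Of the 162 on/off genes, 36 (22.2%) followed another on/off gene directly, against an on/off share of 14.7% over all 1100 genes, and the longest runs off in the same line held 3 genes. One such run, from position 670476 to 685783 in window 1, was off in SF109, SF279 and SF326. Its 3 genes, HanXRQChr07g0185641, HanXRQChr07g0185651 and HanXRQChr07g0185661, had medians of 1.65, 4.42 and 14.4 CPM in SF193 and 2.73, 6.29 and 21.9 CPM in SF317. Another, from 12988235 to 12995167 in window 2, was off in SF342 alone for its first genes and also in SF193 for its last, HanXRQChr07g0188201, which had 6.95 to 18.5 CPM at the median in the other 6 lines. The last such run lay between 16676502 and 16908659, also in window 2, and was off in SF109 and SF342. Reads shared between near-identical copies could not be checked without sequence.

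**Figure D4:**
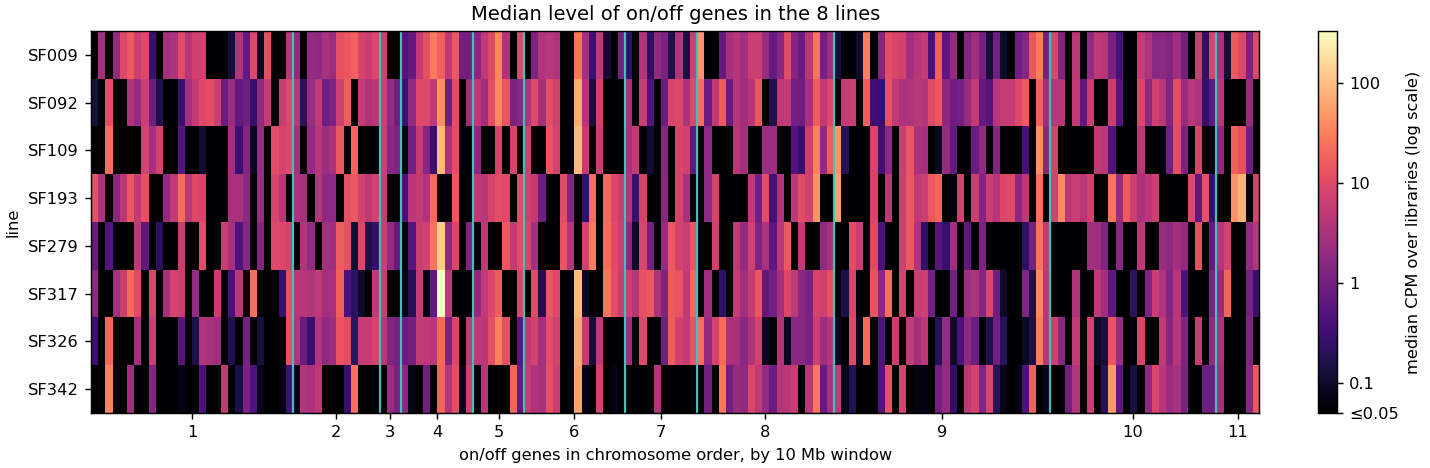
Median level in CPM (colour, log scale, values at or under 0.05 drawn alike) of the 162 on/off genes in chromosome order (columns, windows separated by lines) in the 8 lines (rows). Dark cells are lines in which a gene was off; SF342 has 80 and SF092 has 28.

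Hybrids mostly carried the on state. Where one labelled parent was on and the other off, there were 859 combinations of gene and hybrid, and the hybrid was on in 696 (81%), off in 82 and in between in 81. The hybrid level was a median of 0.555 of the on parent's level (quartiles 0.396 and 0.755), and 0.562 over 20771 such combinations on other chromosomes. The choice of genes favours hybrids that are on. Genes were kept for a mean level of at least 1 CPM, and most libraries are of hybrids. A gene silent in hybrids was thus more likely to be left out, also on other chromosomes under the same bounds. The on shares, here and by parent below, and the ratio are therefore a description only. Where both parents were on, the hybrid was on in 751 of 804 combinations. Where both were off, it was off in 282 of 344 and on in 26.

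These exceptions were uneven between labelled parents. With the other parent off, the hybrid was on in 97.5% to 98.8% of combinations of gene and hybrid where the gene was on in SF109, SF193, SF279, SF317 or SF342. The share was 81.6% for SF009 (102 of 125 combinations), 73.8% for SF092 (93 of 126) and 70.8% for SF326 (46 of 65). Conversely, hybrids of SF326 were on in 28.9% of combinations where the gene was off in both SF326 and the other parent (22 of 76), while the other 7 lines had 0% to 12.7%. On other chromosomes the on shares were 82%, 79.6% and 75.9% for SF009, SF092 and SF326 and 97.3% to 99.3% for the rest. The libraries labelled as lines SF009, SF092 and SF326 thus do not match the hybrids that carry their names as well as the other 5 lines do. Results that rest on these lines hold for the libraries so labelled.

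**Figure D5:**
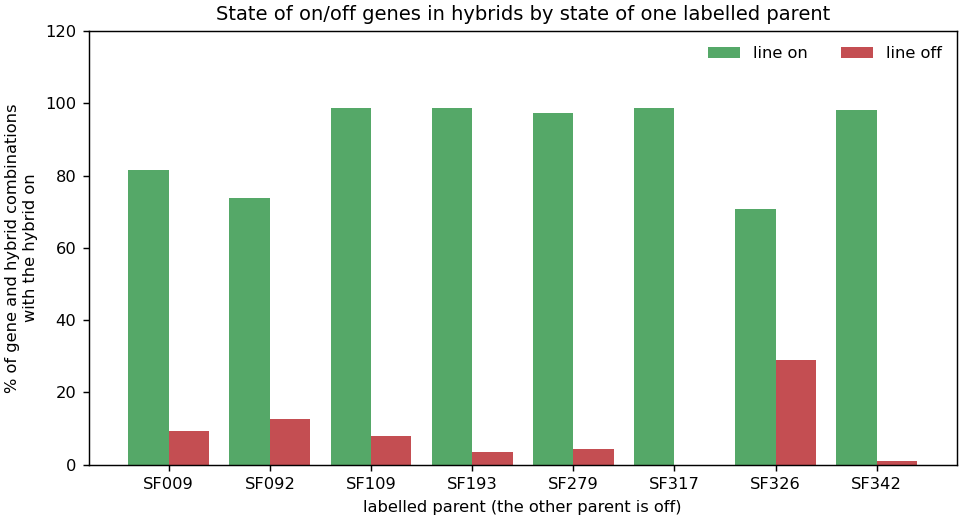
Percent of combinations of on/off gene and hybrid in which the hybrid was on (vertical axis), for each labelled parent (horizontal axis) when that parent was on or off and the other parent was off. SF009, SF092 and SF326 have 81.6%, 73.8% and 70.8% where the line was on, against 97.5% or more for the other 5 lines.

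HanXRQChr07g0204711 (7: 96948774 to 96951923, minus strand, window 10) was on in SF193 only (edgeR adjusted p for lines = 3.504e-23). Its 6 SF193 libraries had 10.98 to 22.2 CPM, and none of the 40 libraries of the other 7 lines had a count. The 24 libraries of SF193 hybrids had 3.22 to 12.3 CPM with a median of 7.31 CPM, under the line's median of 15.7 CPM. The other 12 hybrids had 0 to 0.215 CPM. The gene thus followed SF193 through each of its 4 hybrids.

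HanXRQChr07g0191231 (7: 34636184 to 34641435, minus strand, window 4) was off in SF193, with 4 libraries at 0 and 2 at 0.128 and 0.157 CPM, and differed among lines (edgeR adjusted p = 8.951e-31). SF317 had 180.2 to 752.9 CPM and SF279 had 79.2 to 191.1 CPM. Hybrids of SF193 were on, with medians of 127.7 CPM with SF317, 60.4 CPM with SF279, 10.6 CPM with SF326 and 9.48 CPM with SF342, in the order of the second-named lines, whose medians were 334.1, 131.7, 20.9 and 19.6 CPM. SF009_SF326 had 0 to 0.612 CPM although both labelled parents were on at the median. The SF009 libraries disagreed among themselves, with 0, 17.4 and 20.8 CPM under stress against 1.19, 17.8 and 47.2 CPM in control plants.

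HanXRQChr07g0202971 (7: 89434692 to 89441383, plus strand, window 9) had no count in the 4 libraries of SF342 and 9.07 to 132.1 CPM in the other 7 lines (edgeR adjusted p for lines = 2.626e-11). That adjusted p was 0.2203 without SF342 and 0.06054 without replicate 3, a fit in which SF342 is not among the lines. Its hybrids with SF193 and SF009 were on, with 11.6 to 43.3 CPM in SF193_SF342 and 10.4 to 35.9 CPM in SF009_SF342. SF092_SF342 had 0.194 to 0.900 CPM, although the libraries labelled SF092 had 9.07 to 66.8 CPM, and SF109_SF342 varied from 0.171 to 32.8 CPM. HanXRQChr07g0191601 (7: 38367555 to 38368163, minus strand, window 4) met the rule for a gene on in SF009 alone, at a median of 1.03 CPM, but the line test did not call it (edgeR adjusted p = 1). SF009 had 2.06, 3.26 and 5.90 CPM under stress against 0 in all 3 control libraries. Over all genotypes it had 0 to 8.88 CPM in stress libraries and 0 to 0.166 CPM in control libraries, and the averaged drought test gave no information for it.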

How the data were processed

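The data are leaf RNA-seq of sunflower, Helianthus annuus, with 72 stress and 70 control libraries of 24 genotypes. The authors deposited whole-number read counts per gene for all libraries and, in a second table, CPM after filtering; per the file headers the count table gives gene positions. R 3.3.3 and edgeR 3.16.5 stand in the submitters' processing notes with no role given; an aligner and a counting tool do not. The authors' filtered CPM table served in 1 alternative, run on the raw counts of its genes and libraries.

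From the deposited counts, CPM was computed with library totals for levels and on/off states. Members, lists and tests were chosen with earlier results of these data known, so the patterns are not independent of them. Tests used edgeR 4.0.16 in R 4.3.3: filterByExpr over the 48 groups (36989 genes), TMM scaling, 1 mean per group, robust quasi-likelihood F-tests, and Benjamini-Hochberg adjustment over all tested genes at 0.05. The dispersion trend was set from 2000 genes and interpolated. The engine was tested on simulated counts. A genotype with no count for a gene leaves averaged tests of that gene without information. The 1 control library of SF342 is assumed to vary like other groups. Alternatives used limma 3.58.1 (voom), DESeq2 1.42.0, other scalings and filters, and fewer libraries.

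Genes were named by rules on direction, level and rank: the 2 largest rises and falls with 1 direction in 24 genotypes, the 2 widest line differences, the 2 highest genes off in 1 line and on in 1 line, the smallest p of each parent effect and of the interaction (2), and the largest difference in response each way. The last 3 kinds needed a mean of at least 1 CPM in every hybrid (parent effects) or genotype. Counts carry no molecular identifiers, so limits from counts cover counting error only. P-values measure the spread between plants.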

Additional observations from a re-analysis of the deposited data

Results flagged for a closer look

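The drought response differed between hybrids and lines for 370 of the 1100 genes and between genotypes for 158, by tests of the difference itself. Among the named genes, the response of hybrids minus that of lines on the log2 scale was -1.27 for HanXRQChr07g0203461, -2.14 for HanXRQChr07g0205891, -2.13 for HanXRQChr07g0195061, -0.99 for HanXRQChr07g0185601 and -0.51 for HanXRQChr07g0192191. It was -3.02 for HanXRQChr07g0200061, 0.41 for HanXRQChr07g0191011 and 1.73 for HanXRQChr07g0195821. For HanXRQChr07g0185601 the log2 response was lowest in SF092_SF317, at -1.89, and highest in SF326, at 1.79. For HanXRQChr07g0191011 it was lowest in SF326, at -1.49, and highest in SF092_SF317, at 0.67. One stress library of each of these 2 genotypes is among the doubted ones.

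Single values far from the rest of their group (Dixon's criterion at 95%) were looked for in 58 groups, and 10 were found. About 1 in 20 groups passes by chance if all its values vary alike. Groups of a gene in a line pooled stress and control libraries, so this rate does not hold for genes that follow the water supply. SF326 stress replicate 3, whose on/off states match another label, had 44.9 CPM of HanXRQChr07g0185601 and 243.7 CPM of HanXRQChr07g0191231, far above the other SF326 libraries. SF009 control replicate 3 had 103 CPM of HanXRQChr07g0195061, and SF092 control replicate 3 had 73.97 CPM. SF193 stress replicate 3 had 73.9 CPM of HanXRQChr07g0202971. HanXRQChr07g0191601 reached 3.85 CPM in SF092 stress replicate 3 and 2.24 CPM in SF109 stress replicate 2, with the other libraries of each line near 0.

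Over the 8 lines, SF326 stood apart: where an on/off gene was off in both labelled parents, its hybrids were on in 28.9% of combinations of gene and hybrid. SF193 stood apart in the mean share of genes that differed from its 7 partners, 46.6% in window 10 and 43.5% in window 11.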

How the results depend on the processing

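Of 153 recomputed counts and shares, 137 kept within 1.5 times the main count or within its binomial interval, and 16 did not. No value reversed in direction. Leaving out a replicate number gave 20 to 26 genes whose response differed between genotypes, 167 to 289 whose response differed between hybrids and lines, a same-sign share of line and hybrid differences of 85% to 91.4%, a highest window share of line differences of 72.7% to 79.3% and a lowest of 50.8% to 58.5%. The lowest window share was 57.4% without the doubted libraries and 56.1% without them and the lines SF009, SF092 and SF326, an alternative added after seeing the data; the same-sign share was then 91.9%. Over all chromosome 7 models, 272 were on/off genes, as more genes are counted. With replicate block, 418 genes rose, 406 fell, 149 differed in response between genotypes and 828 among lines. The check used did not settle whether replicate numbers pair the plants within a genotype. Of 69 pairs of stress and control libraries, 43 had a correlation of deviations over 0.1 (median 0.17, range -0.215 to 0.522). Against other groups, 59 of 141 libraries correlated best with their own number. The replicate block has terms shared by all genotypes. No fit used pairing within a genotype, and what it would change was not tested. Scaling by library totals set 61.6% of drought calls as rises, against 50.7% with TMM. Among the 15 named genes that were called, 181 of 186 recomputed calls were kept; of the 5 lost, HanXRQChr07g0198331 had no information without replicate 3 and without the doubted libraries. Limma voom shared 794 of the 829 line calls and 125 of the 158 genotype response calls. Genes near 1 CPM have about 7 counts in the median library, which limits calls of single genes.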

Other observations

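Genes off in both labelled parents and on in a hybrid were few, with 15 genes in 7 hybrids, and 22 of the 26 combinations were in hybrids of SF326. HanXRQChr07g0194611 (7: 59549458 to 59557100, window 6) had a median of 13.2 CPM in SF092_SF326 and 13.3 CPM in SF109_SF326, while SF092, SF109 and SF326 each had a median of 0. Its neighbour HanXRQChr07g0194621 had 5.69 CPM in SF009_SF326, 5.92 CPM in SF092_SF326 and 5.17 CPM in SF109_SF326, again with a median of 0 in each labelled parent. HanXRQChr07g0194671 had 3.74 CPM in SF092_SF326 and 4.25 CPM in SF109_SF326, also with medians of 0 in the parents. All 3 genes were on in SF193, SF279 and SF317.

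In 4 of the 7 pairs of lines with SF009, the longest stretch without a call lay in windows 3 and 4 or in window 4; these pairs were picked out after their values were seen. Between SF009 and SF109, the longest one held 25 genes from 29379005 to 32037745, and in the hybrid sets of these parents 35 genes from 27638143 to 32037745. Between SF009 and SF193 it held 25 genes from 28405392 to 31178761, and between SF009 and SF317 it held 19 genes from 27638143 to 30519320. Between SF009 and SF092 it held 18 genes from 30719703 to 32599218. All 4 pairs share the libraries of SF009, which are among the doubted ones. How long a stretch would be without any local pattern was not tested, so no shared segment is read from these. Between the hybrids of SF009 and SF193 the longest stretch held 21 genes from 1333353 to 2951602 in window 1, where the 2 lines also had their lowest share of differing genes.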
